A study of Mus musculus with 15 samples.

Results

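The distal part of mouse chromosome 4 carries a run of zinc finger protein genes that are copies of each other, and 7 genes named there in the deposited histone tables are described here. They were Gm13242, 1700095A21Rik, Gm13247, Gm13251, Gm13152, Gm13154 and 2610305D13Rik, out of 7814 genes named in any of the 6 H3 tables. Their choice rested on the same H3 tables and ACF1 lists whose values are given below, so all values are descriptions and no test was made of them. The samples were nucleus accumbens tissue, a forebrain region of reward, from C57BL/6 mice in 3 groups: control mice, and mice that met a new aggressive CD1 mouse on each of 10 days and were then sorted by a social interaction test into susceptible and resilient. Tissue of 10 mice was pooled per replicate and collected 48 hours after the last defeat. The age of the mice is not given in the sources used here. ChIP-seq of ACF1, the accessory subunit of a chromatin remodelling complex that slides and spaces nucleosomes, was deposited as 1 list of segments per group. ChIP-seq of histone H3 after micrococcal nuclease digestion was deposited as tables for each pair of groups. The labels tell of triplicates, but each file holds 1 result, so no spread between replicates could be taken and no depth is known. These assays give no expression values, so the tissue was not checked against marker genes.

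Each ACF1 list assigns every 200 bp step of the genome to E1 or E2. The rarer state, E2, is called a segment here, and the files do not say which state stands for ACF1 binding. Each H3 occupancy table gives positions selected by the authors with the word Up or Down, without size or p-value. Up was read as higher in the first-named group, and both the pair and its order come from how the deposited tables are named. With the opposite reading, every direction below turns round. Every coordinate of a gene, segment or position is 1-based on mm9.

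Zinc finger proteins of the vertebrate KRAB type bind DNA through arrays of C2H2 fingers and recruit the co-repressor TRIM28, which brings in histone H3 lysine 9 methylation to silence transposable elements and other targets. Their genes lie in clusters that grew by tandem duplication, so that neighbours share much of their sequence. In RefSeq's GRCm38.p6 table the members carry the symbols Zfp980 (Gm13242), Zfp981 (Gm13247), Zfp992 (Gm13251), Zfp982 (Gm13152), Zfp985 (Gm13154) and Zfp979 (2610305D13Rik), and 1700095A21Rik is a long non-coding RNA. The gene 2610305D13Rik is also listed there as Ssm1b, a name from a strain-specific modifier of DNA methylation in mice.

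The members spanned 1756 kb, from base 145260600 to base 147016617 of chromosome 4, and covered 499.1 kb of it. Gm13242 (33.7 kb, plus strand) lay first, from 145260600 to 145294340. After it came 1700095A21Rik (27.8 kb, plus strand), from 145651166 to 145679000, and Gm13247 (37.4 kb, minus strand), from 145658644 to 145696039. These 2 overlapped over 20.4 kb on opposite strands, and the tables give a position in that overlap to Gm13247. Gm13251 (20.4 kb, minus strand) followed from 145728599 to 145749009. Gm13152 was by far the longest, with 337.6 kb on the plus strand from 146549975 to 146887529. Gm13154 (31.9 kb, plus strand) ran from 146927386 to 146959310, and 2610305D13Rik (30.6 kb, minus strand) from 146986045 to 147016617. RefSeq's table for the later assembly GRCm38.p6 gives Gm13152 a shorter span, so whatever is counted at Gm13152 below lies within its mm9 bounds, not within a gene model of the later build. In the mm9 tables its start lay 377.4 kb before that of Gm13154, and its last ACF1 segment ended 112.8 kb before it. The 3 starts of the later build lie 110.2, 60.9 and 52.6 kb before the start of Gm13154. The starts of Gm13154 and 2610305D13Rik are 89.2 kb apart in both builds. All distances along Gm13152 below are from the mm9 start, which matches none of the later starts in this spacing.

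The 5 promoter windows printed here show how alike these genes are before a RefSeq transcription start. They are the 250 bases before a transcription start, from RefSeq on GRCm38.p6, at chr4:145670447-145670696 (Gm13242, plus strand), chr4:146514670-146514919 (Gm13247, plus strand), chr4:147492167-147492416 (Gm13152, plus strand), chr4:147553027-147553276 (Gm13154, plus strand), chr4:147642509-147642758 (2610305D13Rik, minus strand). Capitals mark the runs of at least 12 bases found in all 5.
Gm13242: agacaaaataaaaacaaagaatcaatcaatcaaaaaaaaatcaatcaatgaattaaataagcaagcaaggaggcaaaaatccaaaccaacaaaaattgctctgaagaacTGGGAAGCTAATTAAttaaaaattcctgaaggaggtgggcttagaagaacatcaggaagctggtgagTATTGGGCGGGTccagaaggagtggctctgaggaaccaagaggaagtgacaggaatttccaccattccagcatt
Gm13247: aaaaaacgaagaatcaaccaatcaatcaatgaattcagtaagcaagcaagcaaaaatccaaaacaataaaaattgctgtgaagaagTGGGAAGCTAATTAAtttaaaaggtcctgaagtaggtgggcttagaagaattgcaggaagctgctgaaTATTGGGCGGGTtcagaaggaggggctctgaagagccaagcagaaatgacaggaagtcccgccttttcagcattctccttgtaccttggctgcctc
Gm13152: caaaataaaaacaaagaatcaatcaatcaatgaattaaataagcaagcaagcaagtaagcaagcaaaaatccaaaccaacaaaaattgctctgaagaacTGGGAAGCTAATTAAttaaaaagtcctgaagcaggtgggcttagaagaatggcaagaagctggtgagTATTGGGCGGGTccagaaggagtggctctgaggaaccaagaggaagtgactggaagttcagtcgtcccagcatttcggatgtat
Gm13154: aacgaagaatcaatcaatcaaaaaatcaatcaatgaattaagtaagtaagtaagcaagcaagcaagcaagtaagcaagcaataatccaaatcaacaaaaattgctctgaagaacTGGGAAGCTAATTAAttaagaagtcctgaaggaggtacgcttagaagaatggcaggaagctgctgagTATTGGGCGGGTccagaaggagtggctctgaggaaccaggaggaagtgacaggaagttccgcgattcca
2610305D13Rik: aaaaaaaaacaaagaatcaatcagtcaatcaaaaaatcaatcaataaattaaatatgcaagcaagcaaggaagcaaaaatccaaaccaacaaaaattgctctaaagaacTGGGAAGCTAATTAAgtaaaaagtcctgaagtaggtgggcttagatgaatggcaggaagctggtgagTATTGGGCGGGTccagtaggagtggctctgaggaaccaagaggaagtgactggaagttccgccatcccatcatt
The pairwise identity of these windows was 67.7% to 88.6% over the aligned columns, gaps counted, with a median of 78.85%. Gm13242 and 2610305D13Rik were the closest pair (88.6%), and Gm13247 and Gm13154 the most distant (67.7%). The window of 1700095A21Rik and the other windows of Gm13152, which has 3 starts in the table, had identities of 42.1% to 48.2% in pairs that did not join these 5. Windows were called alike at 70% identity with that of Gm13242, a limit set after seeing the values. The promoter table held windows for 6 members and none for Gm13251, so the likeness of Gm13251 could not be assessed. The window of Gm13247 belongs to its shorter transcript, NM_001243139, judged by the distance to the outer start of the gene. The window of Gm13152 is that of its start 60.9 kb before Gm13154, not of the mm9 start. The strand of Gm13247 and 1700095A21Rik in the later build is opposite to that in the mm9 tables.

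The first run in capitals, TGGGAAGCTAATTAA, began 136 to 164 bases upstream of the start in the 5 windows. Searched on both strands, it was in 12 of 32851 promoter windows of the same length (0.0365%), and all 12 genes were on chromosome 4: the 5 members and Gm13212, Rex2, Zfp534, Zfp600, Zfp984, Zfp987 and Zfp988. The other, TATTGGGCGGGT, began 69 to 96 bases upstream and was also in 12 windows, 10 of them on chromosome 4 and the others at Zfp947 and Zfp994 on chromosome 17. It contains the letters of a GC box (GGGCGG) overlapping those of a CCAAT box on the opposite strand (ATTGG), which are common: 32.7% of all windows hold GGGCGG and 33.8% hold CCAAT, on either strand. How reads that match several such copies were placed is not given in the sources used here, and its part in the values below was not tested.

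ACF1 segments covered more of these genes in susceptible than in control mice, with resilient mice in between. Over the 7 members, 66.3 kb lay in segments in controls (13.3% of their length, 12 segments), 194.6 kb in susceptible (39%, 16 segments) and 121.8 kb in resilient mice (24.4%, 11 segments). Susceptible cover was thus 2.93 times that of controls, and resilient cover 1.84 times. The order of groups was not particular to these genes. On the rest of chromosome 4, segments covered 116.1 kb in controls, 275.6 kb in susceptible (2.38 times controls) and 193 kb in resilient mice (1.66 times). Between the first and last base of the members but outside them, the cover was 58.3, 153.2 and 119.2 kb, or 2.63 and 2.05 times controls. Outside that span the rest of chromosome 4 had 57.8, 122.4 and 73.8 kb, ratios of 2.12 and 1.28. The lists as wholes held 2610.6 kb in controls, 4239 kb in susceptible and 2859.4 kb in resilient mice, ratios of 1.62 and 1.10. The members took up 2.54% of the control list, 4.59% of the susceptible and 4.26% of the resilient list. With 1 list per group, these differences have no replicate check. Without Gm13152 the cover was 7.3 kb, 83.4 kb and 40.6 kb, or 4.5%, 51.6% and 25.1% of the remaining length.

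All 7 members held a segment in susceptible mice, where 2.55% of the genes named in the tables did. In controls 3 of 7 did (background 1.89%), and in resilient mice 3 of 7 (background 1.47%); both times these were Gm13242, Gm13251 and Gm13152. The members were chosen partly for these segments, so nothing is read from the counts. The other 4 members, 1700095A21Rik, Gm13247, Gm13154 and 2610305D13Rik, held segments in the susceptible list and none in the control or resilient list.

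**Figure D1:**
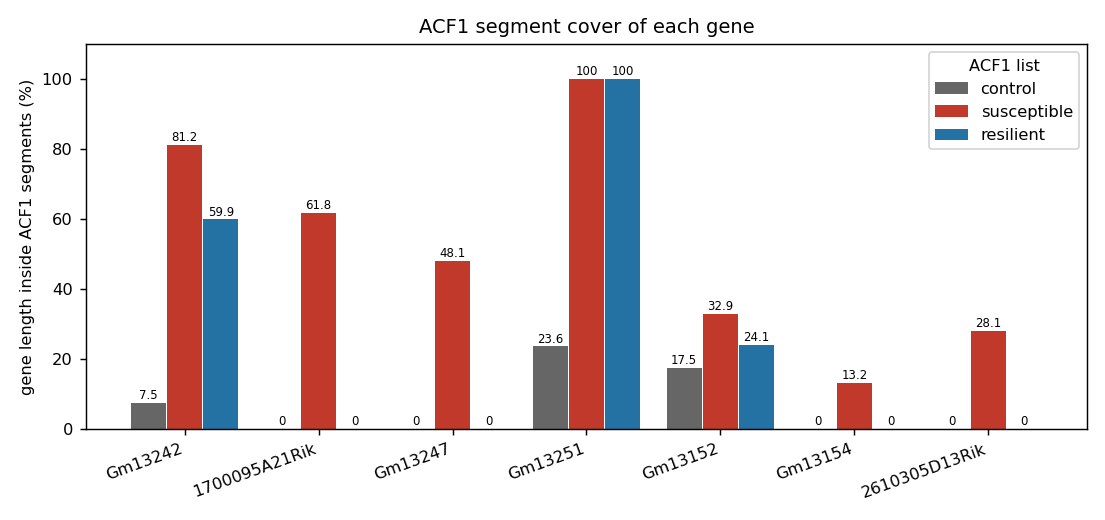
Bars give the share of each gene's length (%, y axis) inside ACF1 segments for the control, susceptible and resilient lists, with 1 list per group and no error. Susceptible bars are the tallest or level with the tallest at all 7 genes, and 4 genes have a susceptible bar only.

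Gm13251, one of the zinc finger genes, was the most fully covered. Its control cover was 23.6% of the gene, in 2 segments of 800 bp and 14200 bp, the wider running on past the start of the gene. In susceptible mice the whole gene lay in a segment of 35600 bp (145726201 to 145761800). The segment over it in resilient mice was 62400 bp wide (145699401 to 145761800). Its start was inside a segment in all 3 lists. The susceptible and resilient lists thus did not differ within this gene, and both exceeded the control list.

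Gm13242, a zinc finger gene at the proximal end, also had more cover in both stressed groups than in controls. Controls had 7.5% of it in segments, a segment of 2400 bp and the edge of another that overlapped it by 140 bp. Susceptible mice had 81.2%, in 1 segment from 145264201 to 145291600, and resilient mice 59.9%, in 1 segment from 145269801 to 145290000. The resilient segment lay wholly within the susceptible segment, and all 3 lists shared 2400 bp. The start of Gm13242 was in no segment; the nearest began 3601 bp downstream in the susceptible list, against 9201 bp for resilient and 16801 bp for control mice.

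At 1700095A21Rik and Gm13247, the overlapping antisense pair, cover was found in the susceptible list. A segment of 18000 bp from 145666601 to 145684600 lay within Gm13247 (48.1% of it). It held the start of the shorter Gm13247 transcript, at base 145683119, whose promoter is printed above, but not that of the longer one at 145696039. The same segment reached 12400 bp into 1700095A21Rik. A further segment of 4800 bp began 235 bp downstream of the start of 1700095A21Rik and brought its cover to 61.8%. In controls the nearest segment to that start was 50435 bp away, and in resilient mice 48235 bp.

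Gm13154 and 2610305D13Rik, zinc finger genes at the distal end, had smaller susceptible segments. Gm13154 held 1 of 4200 bp (13.2% of the gene), 6815 bp downstream of its start. In 2610305D13Rik, segments of 5600 bp and 3000 bp made up 28.1% of the gene, and the smaller ended 17 bp inside the first transcribed base. The promoter of 2610305D13Rik is the one closest in sequence to that of Gm13242, a gene that held segments in all 3 lists. Whether likeness of promoters goes with likeness of cover was not tested.

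**Figure D2:**
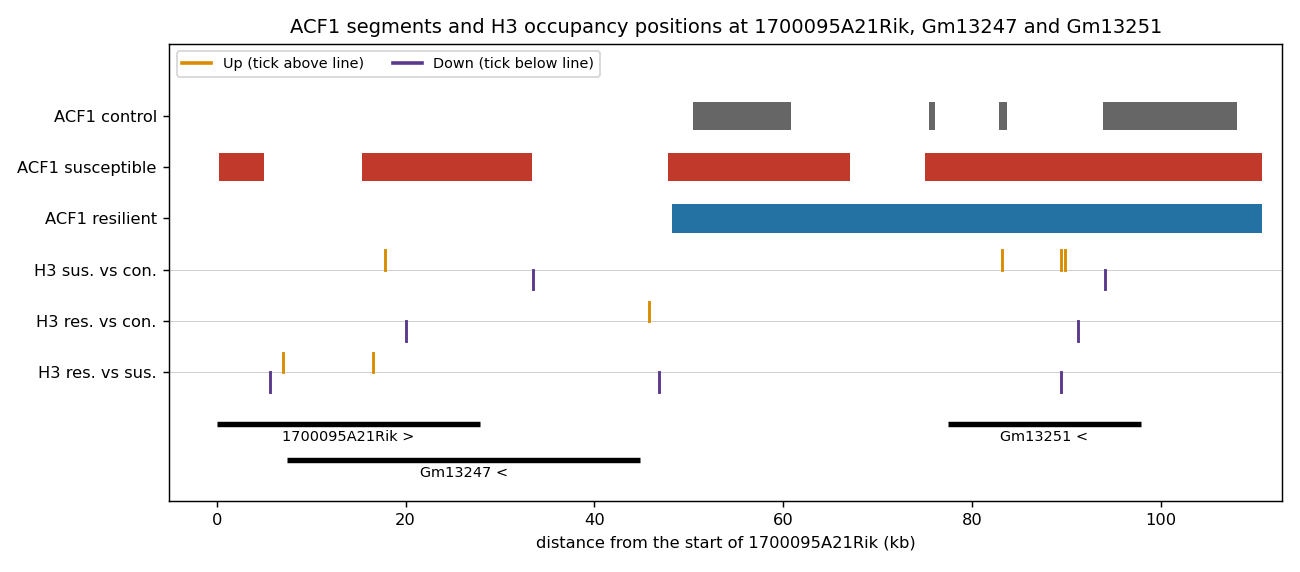
The x axis gives distance from the start of 1700095A21Rik in kb; bars are ACF1 segments of the 3 lists, ticks above a line are Up and below it Down H3 positions named for these genes, and black bars are the genes with their direction. The susceptible segments over 1700095A21Rik and Gm13247 have no counterpart in the other lists, while all lists cover the start of Gm13251.

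Gm13152, the longest of the zinc finger genes here, held more segment length than any other gene named in the tables in each of the 3 lists. Controls had 59 kb (17.5%) in 8 segments, susceptible mice 111.2 kb (32.9%) in 9 and resilient mice 81.2 kb (24.1%) in 9. All lists shared 33400 bp. A further 30400 bp was covered in susceptible and resilient but not control mice, 27800 bp in susceptible mice alone, 11600 bp in resilient mice alone and 200 bp in controls alone. Control cover thus lay almost wholly inside that of the stressed groups.

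Segments of Gm13152 clustered at the same places. From 236.2 to 261.4 kb after the start, controls had their widest segment (25.2 kb). The resilient list had 35 kb from 229.6 to 264.6 kb, and the susceptible list 21.2 kb from 231.4 to 252.6 kb with another 4.8 kb ending at 261.8 kb. Near 160 to 179 kb, susceptible mice had 1 segment of 20.2 kb, resilient mice had 13.2 kb and 1.2 kb, and controls 10.4 kb and 0.8 kb. Segments at 112.8 to 120.2 kb and 132.2 to 139.4 kb were in the susceptible list alone, and that at 147 to 150.4 kb in the resilient list alone. At 50.8 to 61.6 kb controls had a segment of 10.8 kb, which overlapped a susceptible segment of 13.8 kb, and the resilient list had none there. After 264.6 kb no list had a segment, over the last 72.9 kb of the gene. The stretch from 179.4 to 211.2 kb held neither a segment nor a listed H3 position of any table.

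H3 occupancy positions at the members were mostly Up in susceptible against control and mostly Down in resilient against control, in tables that share the control group. For susceptible against control, the authors' deposited table listed 18 Up and 10 Down positions at members. For resilient against control, it listed 6 Up and 32 Down, and for resilient against susceptible 6 Up and 19 Down. The share of Down positions was 35.7%, 84.2% and 76.0%. Over all positions of each table the Down shares were 85.2%, 61.7% and 51.1%. Outside chromosome 1, which holds an excess of Down positions in susceptible against control, they were 59.6%, 61.7% and 51.2%. The members were chosen on these counts, so nothing is read from the comparison of shares. Each table named 5 of the 7 members, where 60.2%, 49.0% and 45.5% of genes named in any table held a position. These shares include chromosome 1, and outside it 3607, 3565 and 3292 genes held a position.

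**Figure D3:**
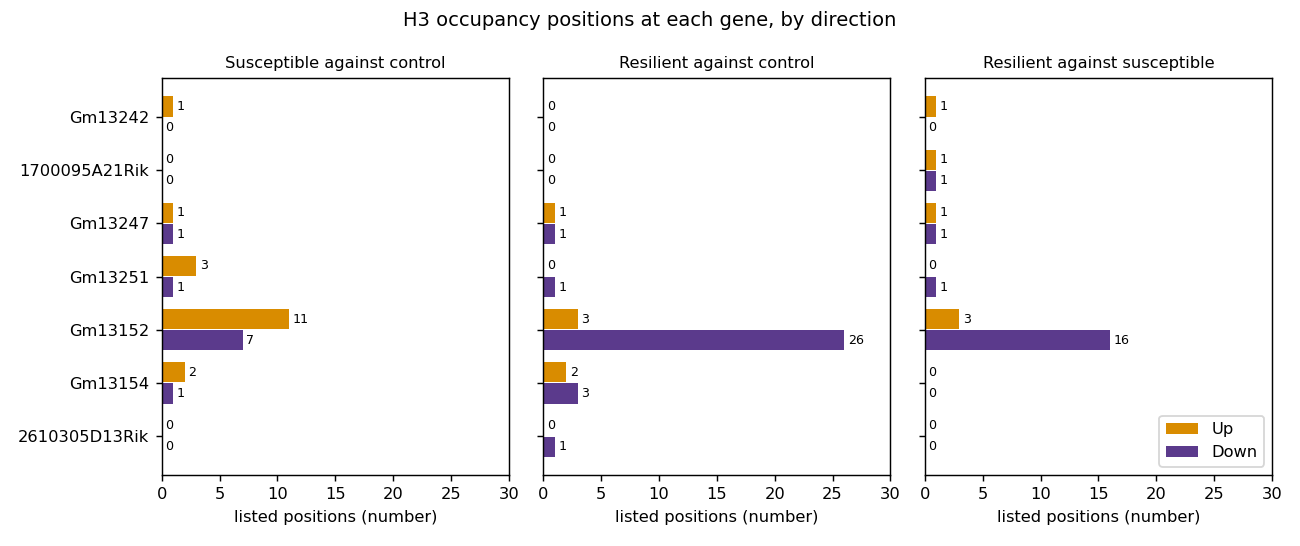
Horizontal bars count the Up and Down H3 occupancy positions (x axis) at each gene in the 3 tables. Gm13152 has the longest bars in each, with 11 Up and 7 Down, 3 Up and 26 Down, and 3 Up and 16 Down; no other gene exceeds 3 in a direction.

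Most of these positions were at Gm13152: 18 of 28, 29 of 38 and 19 of 25. Without it, the members had 7 Up and 3 Down in susceptible against control and 3 Up and 6 Down in resilient against control. Resilient against susceptible then had 3 Up and 3 Down. Outside chromosome 1, Gm13152 ranked 3rd, 1st and 3rd among genes by number of positions. It held 5.33, 8.59 and 5.63 positions per 100 kb, against 0.97, 0.95 and 0.85 over all named genes outside chromosome 1. A density above that of all named genes was not particular to Gm13152: the other members together held 6.19, 5.57 and 3.71 per 100 kb. As all members were chosen with these positions known, nothing is read from the ranks and densities.

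Along Gm13152, positions of susceptible against control ran from 60.2 to 336.6 kb after the start. In the authors' deposited table the Up positions were at 83.7, 92.7, 178.6, 248.5, 250.2, 254.1, 279.6, 286.9, 311.3, 316.2 and 336.6 kb. The Down positions were at 60.2, 124.4, 173.6, 173.7, 225.2, 275.7 and 308.1 kb. Both directions were spread along the gene. The Up positions at 248.5 and 250.2 kb lay in segments of all 3 lists, and that at 254.1 kb in control and resilient segments. Of the 18, 7 lay in a control segment, 8 in a susceptible and 5 in a resilient segment, in a gene covered to 17.5%, 32.9% and 24.1%. Over all positions of that table outside chromosome 1, 1.16%, 1.48% and 1.11% lay in such segments.

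In resilient against control, Gm13152 had its 26 Down positions from 58.4 to 314.4 kb. The 3 Up positions of the authors' deposited table were at 67.4, 84.8 and 254.0 kb. From 94.2 to 244.7 kb every listed position was Down, and so was every position from 256.8 kb on, the last 7 of them beyond the last segment of any list. Control segments held 9 of the 29, susceptible 13 and resilient 12, in a gene covered to 17.5%, 32.9% and 24.1%. Over that table outside chromosome 1 the shares were 1.09%, 1.44% and 1.00%. Where no list had a segment, beyond 264.6 kb, the table of susceptible against control listed 5 Up and 2 Down.

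Positions of resilient against susceptible at Gm13152 were Down at 16 and Up at 3. The authors' deposited table had the Up positions at 160.7, 174.6 and 304.9 kb, and the Down ones from 48.3 to 334.5 kb. Of the 19, 13 lay in a susceptible segment, 10 in a resilient and 7 in a control segment, in a gene covered to 32.9%, 24.1% and 17.5%. The shares over that table outside chromosome 1 were 1.52%, 1.12% and 1.18%. In the first 48 kb of the gene no table listed a position.

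Some exact positions stood in more than 1 of the authors' deposited tables, which share a group, so that a single library can enter both. At 146674402, 146775132, 146825642 and 146858042 of Gm13152, susceptible against control and resilient against control were both Down. At 146798492, 146800202 and 146836852, susceptible against control was Up and resilient against susceptible Down. The same held for 145740552 in Gm13251, 8.5 kb after its start. In the reading used here, the former positions were highest in controls and the latter highest in susceptible mice.

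**Figure D4:**
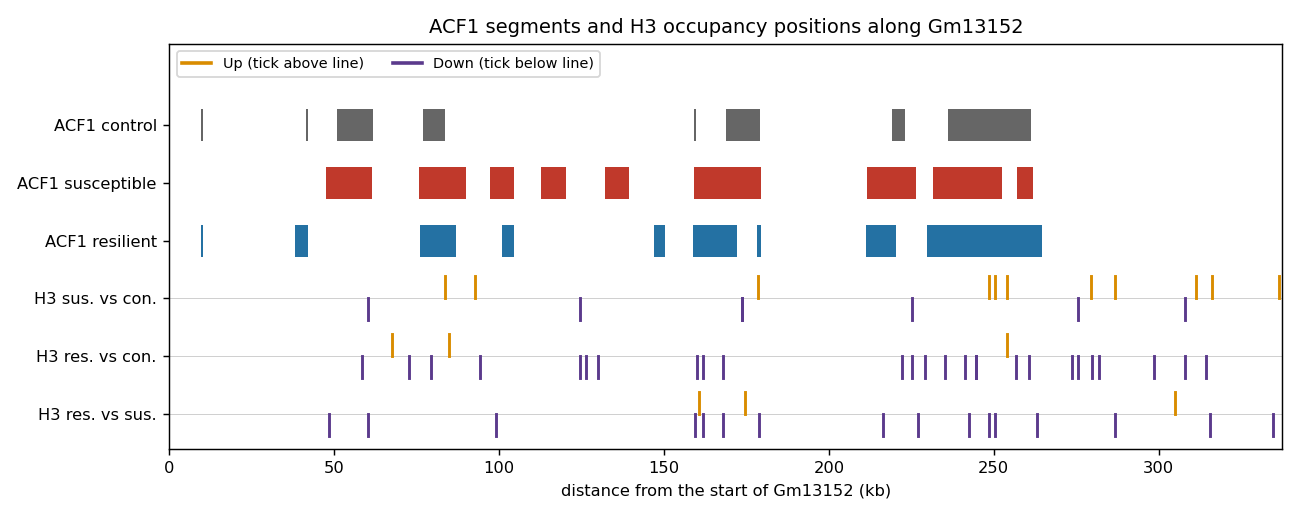
The x axis is distance from the mm9 start of Gm13152 in kb; bars are ACF1 segments of the 3 lists, and ticks above or below a line are Up or Down H3 positions of the 3 tables. Segments end at 264.6 kb while H3 positions go on to 336.6 kb, and the resilient against control line has ticks almost all below it.

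The other zinc finger members had few positions. In susceptible against control, the authors' deposited table listed Gm13251 Up at 14.7, 8.5 and 8.0 kb after its start and Down at 3.8 kb. In resilient against control its position at 6.7 kb was Down, and in resilient against susceptible that at 8.5 kb. All of these lay in the susceptible and resilient segments that cover the gene. Gm13154 was listed Up at 4.1 and 31.4 kb and Down at 7.6 kb in susceptible against control. In resilient against control it was Down at 10.2, 17.5 and 20.7 kb and Up at 23.8 and 24.1 kb. Its Down positions at 7.6 and 10.2 kb lay inside the susceptible segment of 4200 bp, and the others in no segment.

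Gm13247 held 1 Up and 1 Down position in each of the authors' deposited tables. In susceptible against control it was Up at base 145668982, inside the susceptible segment, and Down at 145684672, just past its end. In resilient against control a position at -902.5 bp from the start of the longer transcript was Up, and another at 145671262, inside that segment, was Down. In resilient against susceptible it was Up at 145667712, in the segment, and Down at -1942.5 bp from that start. These 2 upstream positions were the occupancy positions of promoter classes among the members; all others were of the gene body class.

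Gm13242 was listed Up once in susceptible against control, at 145280032, and Up once in resilient against susceptible, at 145268842. The non-coding gene 1700095A21Rik was listed in resilient against susceptible alone, Down at 145656822 and Up at 145658212. For 2610305D13Rik the authors' deposited table gave 1 Down position, in resilient against control, at 146991542, inside its susceptible segment of 5600 bp. With 1 or 2 positions per table, no direction is drawn for these genes.

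Nucleosome shifts, given in bp with a sign whose sense the files do not state, were also most numerous at Gm13152. For susceptible against control the authors' deposited tables listed 14 shifts at members, for resilient against control 12, and for resilient against susceptible 9. Gm13152 had 11, 8 and 6 of these and ranked 2nd outside chromosome 1 in each table (level with 1 other gene in the third). Members with a shift numbered 2, 4 and 3 of 7, where 7.31%, 1.96% and 1.63% of genes named in any table had 1. These shares include chromosome 1, and outside it 144, 129 and 114 genes had a shift. As the members were chosen with the shifts known, nothing is read from these counts and ranks.

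In susceptible against control, 10 of the 11 shifts at Gm13152 were positive: 3 of 60 bp, 3 of 70 bp and 4 of 80 bp. The remaining shift in the authors' deposited table was -80 bp at 146850732, which also stood at -80 bp in resilient against control. Resilient against control had 4 positive and 4 negative shifts, the negative ones 3 of -80 bp and 1 of -70 bp. In resilient against susceptible 5 were positive (60 to 80 bp) and 1 was -60 bp. Over all shifts outside chromosome 1, positive ones made up 53.9%, 51.6% and 52.4%.

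**Figure D5:**
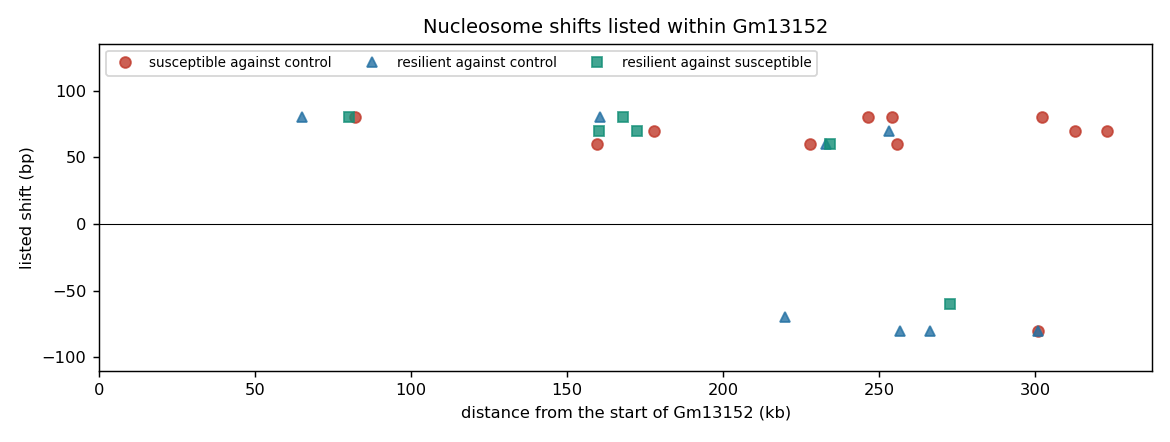
Each point is a shift listed within Gm13152, with its distance from the start of the gene in kb on the x axis and its signed size in bp on the y axis, by table. Susceptible against control has 10 points above 0 and 1 below, resilient against control 4 and 4, and resilient against susceptible 5 and 1.

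Gm13247 had shifts of -70, 80 and -70 bp in susceptible against control. For resilient against control the authors' deposited table gave it 80 bp at 145674412 and -60 bp at 145696132, the latter at -92.5 bp from the start of the longer transcript. Resilient against susceptible gave 80 bp at 145676272. Gm13154 had a shift of -80 bp in resilient against control. Resilient against susceptible gave it 70 bp, at -1483.5 bp from its start, and -60 bp. Gm13251 had -60 bp in resilient against control.

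Of a list of 58 other genes of distal chromosome 4, 14 were named in the tables. They had 3 Up and 6 Down positions in susceptible against control and 4 Up and 11 Down in resilient against control. For resilient against susceptible they had 11 Up and 9 Down. The genes with most positions were Gm13157 (12 over the 3 tables), another zinc finger gene, followed by Vps13d (8), which encodes a lipid transfer protein, C87414 (4), which the tables place on chromosome 5, Dhrs3 (4), a retinaldehyde reductase gene, and Gm13212 (3, level with Tnfrsf8). Segments could be looked up for these 14 alone, as gene bounds came from the H3 tables. Of the 14, 1 gene held a control segment, 2 a susceptible and 1 a resilient segment. Over all named genes the shares were 1.89%, 2.55% and 1.47%. Zfp600, named here after its values were seen, had 20400 bp of control, 37710 bp of susceptible and 25600 bp of resilient cover, the same order as over the members, and carries both promoter runs. Gm13157, whose RefSeq symbol is Zfp984, carries both runs too and had 800 bp of susceptible cover. Gm13212 also carries both runs and Zfp534 the first, and these genes had no cover in any list. Whether the runs go with cover was not tested.

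Of 20 genes listed for the KRAB silencing pathway, including Trim28 and Setdb1, 2 were named in any H3 table. Gene bounds came from the H3 tables, so ACF1 segments could be looked up for these 2 alone, and neither held 1. The others, Trim28 and Setdb1 among them, were not assessed. Since 1.47% to 2.55% of all named genes held 1 in a list, nothing is read from that count. Morc3, which encodes an ATPase, was Down once in susceptible against control and Up once in resilient against control, and Chd3, a remodeller gene, Up once in susceptible against control.

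Likeness was measured as the cosine between a gene's 6 counts (Up and Down in the 3 tables) and the summed counts of the members, over 163 genes outside chromosome 1 with at least 10 positions. The most alike were Gm21319 on chromosome 12 (0.97), the potassium channel gene Kcnh8 on chromosome 17 (0.96) and Nav2 on chromosome 7 (0.959, level with Utrn). Gm21319 had 10 positions in all and Kcnh8 no more, so both cosines rest on few counts. In susceptible against control the members had 18 Up and 10 Down. There Gm21319 had 1 and 1, Kcnh8 3 and 1, and Nav2 2 and 3. A high cosine thus did not require the same leading direction in that table.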

How the data were processed

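The build is mm9 and the named tool CASAVA 1.8.2, per the submitters' processing notes. The aligner, the segment caller and the maker of the H3 tables were each not given in the sources used here. Per the labels' protocols, libraries had 19 PCR cycles for ACF1 and 15 for H3, with 100 bp reads. Of 15 samples, 6 had files (ACF1 and H3); SNF2H and input were not analysed here. The authors deposited state names per interval, words (Up, Down) and shifts in bp, with no counts or scores, so depth and counting error are unknown.

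Positions were given to a gene by the gene name in the tables. Segments counted when they overlapped the union of a gene's transcripts by at least 1 bp. Alternatives were bounds widened by 2000 bp, segments of at least 1000 bp, segments under 1000 bp apart joined, positions by bounds, neighbours within 200 bp counted once, gene body class only, and chromosome 1 left out. Leaving out Gm13152 was added after seeing the data. Members, lists and rules (all members named; the 5 list genes with most positions; the 3 most alike genes) were chosen with earlier results of these data known. No test was made. Overlap and counting code was tested on simulated intervals. Versions were Biopython 1.88, matplotlib 3.10.9, scipy 1.17.1, pandas 2.3.3 and numpy 2.4.6 under Python 3.11.15.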

Additional observations from a re-analysis of the deposited data

How the results depend on the processing

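With other bounds, segment widths, joining, counting of neighbours and location classes, and without chromosome 1, 38 recomputed values stayed within 1.5 times the reported count or within the 95% Wilson interval of the reported share (of 200 bp steps, for cover). The 1 exception was the share of Down positions in susceptible against control, 85.2% over all chromosomes and 59.6% without chromosome 1. Leaving out Gm13152, an alternative added after seeing the data, moved 14 values. Down and Up positions then were 3 and 7 in susceptible against control, 6 and 3 in resilient against control and 3 and 3 in resilient against susceptible, and shifts 3, 4 and 3. Segments then were 4 in controls, 7 in susceptible and 2 in resilient mice, and control cover was 7349 bp and susceptible cover 83411 bp, with fewer genes counted. As a share of the remaining length, control cover was 4.5%, against 13.3% with Gm13152. Susceptible cover was 51.6%, against 39%, so these 2 groups lay further apart in share. Resilient cover fell to 40611 bp, 25.1% of the remaining length against 24.4% with Gm13152. No paired analysis was possible because each group has 1 result per target. Without replicates or read counts, the size of a difference that chance could give is unknown.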
